A study of Mus musculus with 2 samples.

Results

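Mir143 and Mir145a are 2 of the 2202 miRNA genes counted in small RNA libraries of mouse adrenal gland. Both were taken by their gene identifiers in the GENCODE M21 annotation, ENSMUSG00000065445.3 for Mir143 and ENSMUSG00000065592.2 for Mir145a, and not by their measured values. The libraries came from whole adrenal glands of 2 male B6CASTF1/J mice, a hybrid between the C57BL/6 background and a castaneus-derived strain, at 2 months of age. The series holds no further group, treatment, tissue or time point, so replicate 1 (animal 3) and replicate 2 (animal 4) could be compared only with each other. The labels number them as separate biological replicates with 1 library each and name animals 3 and 4, but give both the same donor identifier. They were taken as separate animals on the first of these labels. If they were not, the SDs and differences below would describe samples of a single source. The strand-matched total over miRNA genes was 5752428 reads for replicate 1 and 3333149 for replicate 2.

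Mir143 and Mir145a lie side by side and are known as products of a common primary transcript. In vascular smooth muscle cells and pericytes this transcript is switched on by serum response factor with its co-activator myocardin. The mature miRNAs favour the contractile state of these cells by repressing growth-promoting transcription factors such as Klf4 and Elk1. They are the classical miRNA markers of smooth muscle and of the mural cells that wrap small vessels, and the adrenal gland is densely supplied with such vessels. Cells were not separated here, so a smaller number of cells of a type and less RNA per cell cannot be told apart.

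On the mm10 assembly both genes are on the minus strand of chromosome 18. Mir143 spans 61649196 to 61649258 and Mir145a spans 61647825 to 61647894, with 1301 bases between them, so that Mir143 is transcribed first. Their annotated hairpins are 63 and 70 bases long, with a GC content of 55.6% and 48.6%. In GENCODE M21 neither gene overlaps another gene. The long non-coding RNA gene Carmn, known as the host gene of this cluster and as a smooth muscle and cardiac transcript, ends 366 bases upstream of Mir143 on the same strand (61649625 to 61665537). Bvht, the long non-coding RNA Braveheart of cardiac development, runs on the opposite strand and ends 352 bases from Mir145a (61639542 to 61647472). RefSeq on GRCm38.p6 draws the host differently: there Carmn extends from 61645878 to 61665538 and contains both miRNA genes. The opposite-strand columns held 0 reads at Mir143 and 0 at Mir145a in either library. Their counts were therefore identical with and without regard to strand.

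By counts of reads, Mir143 was among the abundant miRNA genes of the gland and Mir145a was far lower, although they share a locus. How evenly different miRNA sequences were captured in the libraries was not measured, so comparisons between genes are of read counts. Mir143 had 182778 counts in replicate 1 and 106274 in replicate 2. Scaled to 1000000 counts at miRNA genes (CPM), these were 31774 CPM (95% Clopper-Pearson interval 31631 to 31918) and 31884 CPM (31696 to 32073). The intervals of the libraries overlapped, and each held the other library's value. The mean was 31829 ± 77.7 CPM (SD, n = 2), which is 3.18% ± 0.00777 of all miRNA counts. Mir143 ranked 11 in replicate 1 and 12 in replicate 2 among the 2202 genes.

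Mir145a had 5663 counts in replicate 1 and 4780 in replicate 2. These gave 984 CPM (95% interval 959 to 1010) and 1434 CPM (1394 to 1475). Replicate 2 was the higher library, and the intervals did not overlap. The mean was 1209 ± 318 CPM (SD, n = 2), or 0.121% ± 0.0318 of the counts, at rank 73 in replicate 1 and 64 in replicate 2. The standard deviation was 26.3% of the mean for Mir145a and 0.244% for Mir143. These intervals cover counting error only, since several reads can stem from 1 molecule when molecules carry no identifiers. Ranks are uncertain, because reads aligned to several places were not counted at genes (26.2% of all reads in replicate 1 and 28.8% in replicate 2).

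**Figure D1:**
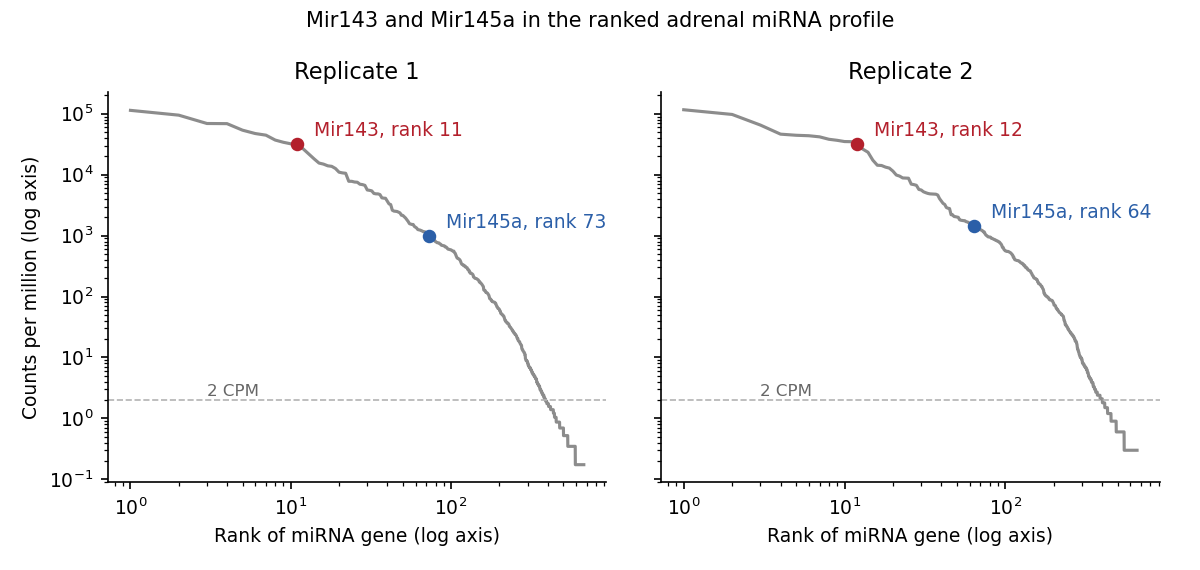
CPM of every miRNA gene with a count, against its rank, on log axes, with 1 panel per library and a dashed line at 2 CPM, the detection limit used. Mir143 stands at rank 11 and 12 near the shoulder of the curve, and Mir145a at rank 73 and 64, more than an order of magnitude lower.

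Next to Mir143 in the order of mean CPM were Mir23b (36038 ± 2904 CPM) and Mir10a (33537 ± 2014 CPM) above it, and Mir139 (31438 ± 7340 CPM) and Mir26b (20883 ± 7602 CPM) below it. Mir139 did not differ from Mir143 beyond its spread: replicate 1 gave 26248 CPM and replicate 2 gave 36628, on either side of Mir143. Mir10a was above Mir143 in both libraries, but the gap between the means was smaller than the standard deviation of Mir10a. Mir23b and Mir26b differed from Mir143 by more than their own standard deviations, and their ranges did not overlap with that of Mir143. Around Mir145a the order was not resolved. Mir708 (1319 ± 104 CPM) and Mir29c (1221 ± 12.9 CPM) stood above it, and Mir140 (1203 ± 63.1 CPM) and Mir34a (1156 ± 6.25 CPM) below it. The range of each of these 4 genes overlapped with that of Mir145a.

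The denominator set which animal had more Mir143. Per 1000000 of all reads, with unaligned reads included, Mir143 had 10751 in replicate 1 and 9884 in replicate 2. Per 1000000 uniquely aligned reads it had 26692 and 24096. Replicate 1 was the higher library on both of these scales, while the CPM values above were level. Mir145a was higher in replicate 2 on each scale, with 333 and 445 per 1000000 of all reads and 827 and 1084 per 1000000 uniquely aligned reads. As a measure of how far reads could belong to another gene, the longest run of bases that the Mir143 hairpin shared with another annotated miRNA hairpin was 11. For Mir145a it was 17, shared with Mir145b. Of 372 detected genes, 92 shared 18 bases or more. Only annotated hairpins were searched, not the whole genome.

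The ratio between the neighbours needs no scaling between libraries. In read counts, Mir143 exceeded Mir145a 32.3-fold in replicate 1 and 22.2-fold in replicate 2. On the log2 scale these count ratios were 5.01 and 4.47, with a mean of 4.74 ± 0.38 (SD, n = 2). Reads of a mature miRNA cover it whole and are not fragments along a long transcript, so counts were not divided by length. Per base of hairpin the ratios would be 35.9-fold and 24.7-fold. Both arms of a hairpin are summed in these counts, so the levels of single mature miRNAs were not resolved.

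Of the reads of the cluster, Mir145a made up 3.01% in replicate 1 and 4.30% in replicate 2. Exact 95% intervals were 2.93 to 3.08 and 4.19 to 4.43, so the animals did not overlap. The odds of a cluster read being Mir143 were thus 1.45 times as high in replicate 1 as in replicate 2 (95% interval 1.40 to 1.51; Fisher's exact test, two-sided, p = 2.73e-76). This test compares 2 libraries and their counting error, and has no check by a second animal on either side. The sum of both genes was 32758 CPM in the first animal and 33318 in the second, or 3.30% ± 0.0396 of the counts (SD, n = 2).

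Between the libraries, Mir143 was called higher and Mir145a lower in replicate 1 after TMM scaling. This scaling brought the median log2 ratio of all tested genes to 0.0072. The log2 ratio of replicate 1 over replicate 2 was 0.19 for Mir143 with a counting error of 0.0056 (SE), a 1.14-fold difference (exact binomial test, two-sided, adjusted p = 4.12e-269). It was -0.34 for Mir145a with an SE of 0.028, so that replicate 2 was 1.27-fold higher (adjusted p = 7.70e-33). Of 389 tested genes, 59.1% were called, 30.8% as higher and 28.3% as lower in replicate 1, so a call in either direction was common. The absolute log2 ratio was smaller than that of Mir143 in 28.5% of tested genes and smaller than that of Mir145a in 44.7%. The median absolute log2 ratio over all tested genes was 0.40. A common dispersion over genes was also estimated from both libraries, taken as replicates of 1 group. The differences between the libraries thus set its size, so a test with it is not an independent check. With a common dispersion over genes in place of counting error alone, edgeR's exact test called 1.03% of the tested genes and neither member (adjusted p = 1 for both, unadjusted p = 0.795 for Mir143 and 0.647 for Mir145a).

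The call for Mir143 depended on the scaling, and that for Mir145a did not. By total counts the log2 ratio of Mir143 was -0.0050 with an SE of 0.0056, and it was not called (exact binomial test, adjusted p = 0.465). Only 1 of the 389 tested genes, Mir142, was closer to 0 on this scale. With DESeq2 size factors the log2 ratio was 0.18 for Mir143 and -0.36 for Mir145a, and by total counts it was -0.54 for Mir145a. TMM moved all log2 ratios up by 0.20 and DESeq2 size factors by 0.19 against total counts. By total counts 85 genes were called higher in replicate 1 and 170 lower, against 120 and 110 with TMM.

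**Figure D2:**
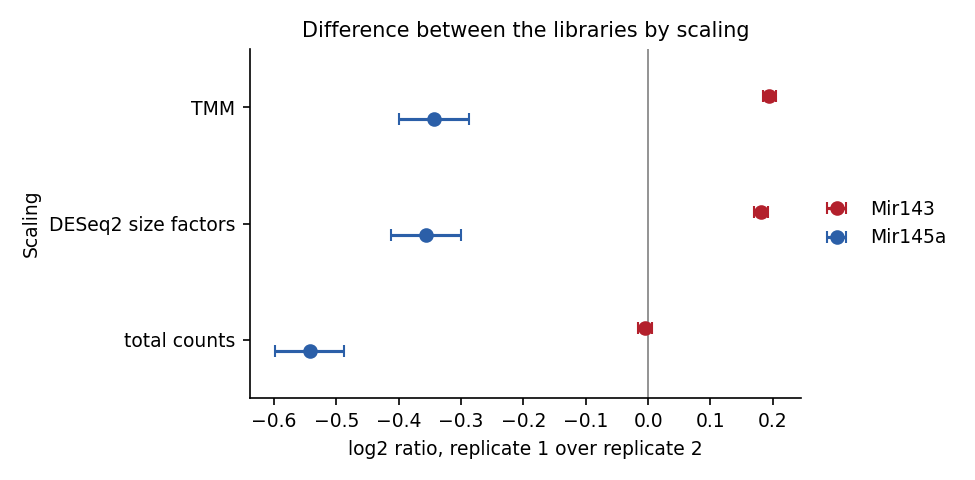
Log2 ratio of replicate 1 over replicate 2 for Mir143 (red) and Mir145a (blue) under 3 scalings, with bars for the 95% interval of counting error. Mir143 lies above 0 with TMM and DESeq2 size factors and at 0 by total counts, while Mir145a lies below 0 under each, and the distance between them stays the same.

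**Figure D3:**
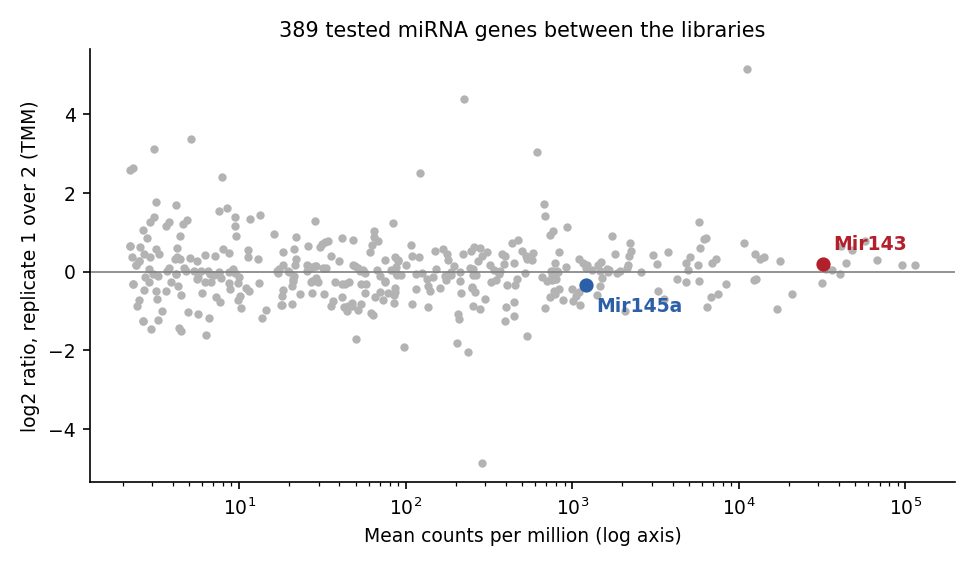
Log2 ratio of replicate 1 over replicate 2 after TMM scaling against mean CPM (log axis), with 1 grey point for each of 389 tested miRNA genes. Mir143 (0.19) and Mir145a (-0.34) lie within the band that holds most genes, on opposite sides of 0.

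The part of the total taken by erythroid miRNA genes differed between the libraries. All 3 listed genes were called higher in replicate 1 by the exact binomial test, as were 30.8% of all tested genes. With edgeR's common dispersion 2 of the 3 were called (not Mir486), against 1.03% of all tested genes in either direction. The 3 genes summed to 22813 CPM in replicate 1 against 901 in replicate 2. Mir451a, the main miRNA of red blood cells, made up most of this sum, with 21615 and 695 CPM. With these genes left out of the total, Mir143 had 32516 CPM in replicate 1 and 31913 in replicate 2, and Mir145a had 1007 and 1435 CPM. For Mir143 replicate 1 was then the higher library, where the CPM values had been level. The order of the libraries for Mir145a was kept. Of the 10 genes listed for heart and skeletal muscle, 4 were tested, of which 3 were called higher and 1 lower in replicate 1, where 59.1% of all tested genes were called in either direction. With edgeR's common dispersion 1 of these 4 was called, Mir499, as higher. Their sum was 720 and 457 CPM. The 3 detected genes of this list were Mir206 (81.7 and 389 CPM in replicates 1 and 2), Mir499 (423 and 23.1 CPM) and Mir208b (204 and 40.8 CPM). Mir1a-1 and Mir133a-2, which define striated muscle, had 0 counts in both libraries, but copies of these genes lose reads aligned to several places. The part of striated muscle in the members' counts was not tested.

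By the level differences between the libraries, the genes most like Mir143 among 259 genes with 100 or more counts in mean were Mir335 (log2 ratio 0.19 after TMM), Mir142 (0.20) and Mir34a (0.21). Those most like Mir145a were Mir376c (-0.35), Mir501 (-0.34) and Mir149 (-0.36). Likeness over 2 libraries rests on a single ratio and gives no pattern across conditions.

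Within the list of smooth muscle, mural and mesenchymal miRNA genes, Mir143 held nearly all counts. Of the 8 listed genes, 6 were detected, that is, reached 2 CPM in each library. The list summed to 33525 CPM for replicate 1 and 34844 for replicate 2, of which Mir143 took 94.8% and 91.5%. Reads of the Mir199 genes that aligned to several places are missing from this sum, so these shares are uncertain. After TMM, 3 of the 6 tested genes were called higher in replicate 1 and 2 lower. Over all tested genes 30.8% and 28.3% were called in these directions. The calls in the list include Mir143 as higher and Mir145a as lower. The median log2 ratio of the list was 0.10 against 0.0072 over all tested genes. By total counts 2 were called higher and 2 lower, where 85 and 170 of all 389 tested genes were. The median was then -0.098 against -0.19. With edgeR's common dispersion 0 of the 6 were called. Mir214, a miRNA of mesenchymal cells, stood at the level of Mir145a, at 734 and 1504 CPM in replicates 1 and 2. Like Mir145a it was lower in replicate 1 (log2 ratio -0.84, SE 0.030; adjusted p = 1.53e-168 by the exact binomial test). Mir145a exceeded Mir214 1.34-fold in replicate 1 and was below it in replicate 2, so their order was not resolved.

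The mesenchymal genes Mir199b and Mir199a-2 were counted far below both members. Mir199b had 20.5 and 12.0 CPM, and Mir199a-2 had 5.56 and 6.30 CPM. Mir199a-1 had 0 counts in replicate 1, which allows up to 0.522 CPM, and 1 count in replicate 2. These levels cannot be read against Mir143 as they stand, since the 3 Mir199 genes share a mature product. The RefSeq sequences (GRCm38.p6) are shown 5′ to 3′ to make this visible, with the seed, bases 2 to 8, in capitals. The 3p product is the same 22 bases at all 3 loci, and that of Mir214, encoded once in this table, has another seed.
miR-199a-3p of Mir199a-2: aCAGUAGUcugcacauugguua
miR-199a-3p of Mir199a-1: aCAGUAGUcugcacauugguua
miR-199b-3p of Mir199b: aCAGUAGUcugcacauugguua
miR-214-3p of Mir214: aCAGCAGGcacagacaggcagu

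The remaining listed genes were near the detection limit. Mir490, which lies in the muscarinic receptor gene Chrm2 and is known from smooth muscle, had 36 counts in replicate 1 and 7 in replicate 2, or 6.26 and 2.10 CPM. Mir145b, a separate gene whose hairpin shares 17 bases with that of Mir145a, had 1 count in replicate 1 and 4 in replicate 2. These are 0.174 and 1.20 CPM, so it was not detected, while Mir145a had 5663 and 4780 reads.

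**Figure D4:**
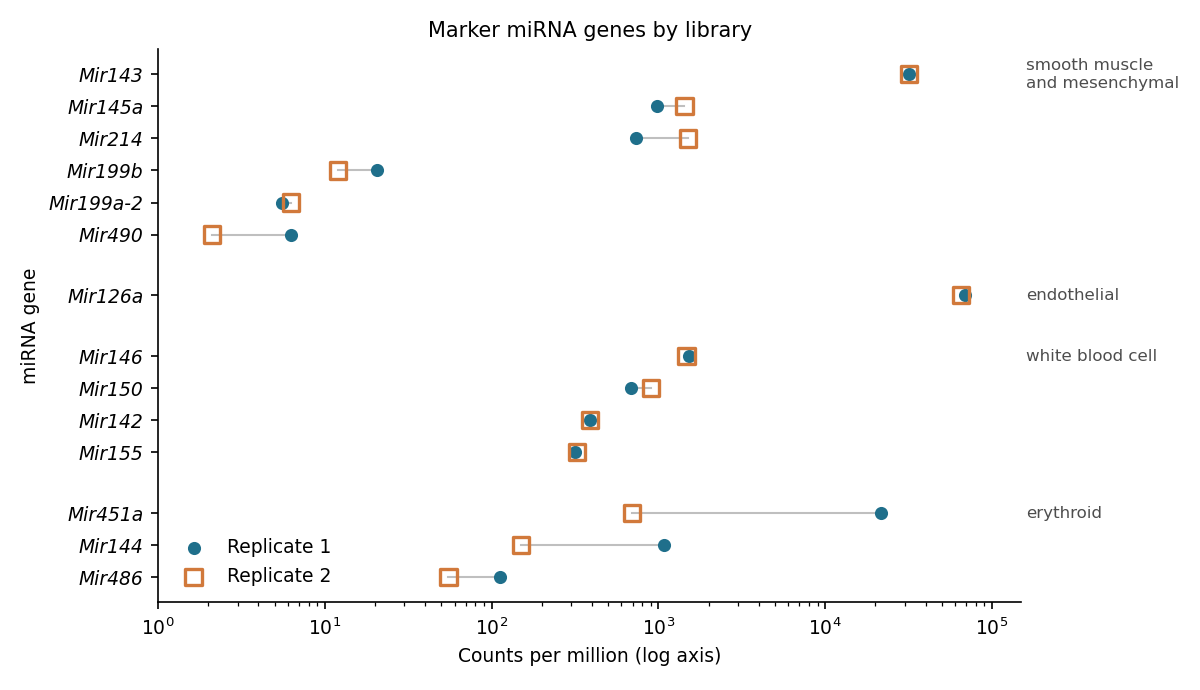
CPM of detected marker miRNA genes on a log axis, grouped by list, with filled circles for replicate 1 and open squares for replicate 2. The circle and the square of Mir143 coincide at a mean of 31829 CPM, Mir145a and Mir214 are both higher in replicate 2, and the erythroid genes are higher in replicate 1.

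Compared with markers of other vascular and blood cells, Mir143 was second to the endothelial gene. Mir126a, the miRNA of endothelial cells in Egfl7, had 69154 and 65133 CPM. It exceeded Mir143 2.18-fold in replicate 1 and 2.04-fold in replicate 2, and Mir145a 70.2-fold and 45.4-fold. The 5 genes of the white blood cell list, all detected, summed to 2956 and 3251 CPM, so that Mir143 alone exceeded the list 10.7-fold and 9.81-fold. Mir145a was below the sum of that list and, in both libraries, below its highest member Mir146 (1522 and 1474 CPM). The hairpin of Mir146 shares 21 bases with another hairpin and can lose reads aligned to several places. The sum of the list and the folds over it are therefore uncertain. In replicate 1 Mir143 exceeded Mir451a only 1.47-fold, and in replicate 2 45.8-fold.

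A further list held 11 miRNA genes known to act on the growth of vascular smooth muscle cells, and all 11 were detected. They summed to 11928 CPM for replicate 1 and 17980 for replicate 2, less than Mir143 alone in either. Mir29a, a repressor of collagen genes, led with 5533 and 9475 CPM, followed by Mir21a, a growth-promoting miRNA, with 4096 and 5597 CPM. After TMM, 1 of the 11 genes was called higher in replicate 1 (Mir29c) and 5 lower, with a median log2 ratio of -0.040, where 30.8% and 28.3% of all tested genes were called in these directions. With edgeR's common dispersion 0 of the 11 were called. By total counts 0 were higher and 6 lower, where 85 and 170 of all 389 tested genes were. Mir221, which promotes the proliferative state of these cells, had 762 and 882 CPM, below Mir145a in both libraries. It was not called after TMM (log2 ratio -0.012), but was called lower in replicate 1 by total counts (-0.21). Mir222, its neighbour on the chromosome, had 80.7 and 327 CPM and was called lower in replicate 1 after TMM (log2 ratio -1.82). Copied genes of this list, such as Mir24-1 and Mir26a-1, share 25 bases or more with another hairpin and lose reads aligned to several places, so the sum is uncertain.

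The uneven counts of Mir143 and Mir145a were set beside those of other neighbouring miRNA genes. There were 113 pairs of adjacent detected genes on the same strand with starts within 10 kb of each other. The median absolute log2 ratio of counts within a pair was 2.24, and that of Mir143 and Mir145a (4.74) ranked 20. It ranked 20 in replicate 1 and 21 in replicate 2. The 3 most uneven pairs were Mir29a over Mir29b-1 (7.50), Mir214 over Mir199a-2 (7.44) and Mirlet7d over Mirlet7f-1 (7.06). In each of these the lower gene shares at least 22 bases with another hairpin, against 17 for Mir145a. Of the 19 pairs above Mir143 and Mir145a, 11 had a lower gene with a shared run of 18 bases or more. Among the 74 pairs built from genes without such a run, Mir143 and Mir145a ranked 9. With its run of 17 bases, Mir145a falls just short of this cut, and no other cut was tried. A loss of Mir145a reads that aligned to several places was not tested. The 3 most even pairs were Mir1193 and Mir679 (0.028), Mir666 and Mir1193 (0.073), and Mir302a and Mir302d (0.13).

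Mir143 and Mir145a kept their order in both animals, as did 103 of the 113 pairs. Their log2 ratio changed by 0.54 between the animals, against a median change of 0.47 over all pairs, and ranked 47. By Fisher's exact test with adjustment over all pairs, 64.6% of the pairs differed between the libraries, and Mir143 and Mir145a were among them (adjusted p = 2.80e-75). Pairs in 1 cluster share genes and are not independent.

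**Figure D5:**
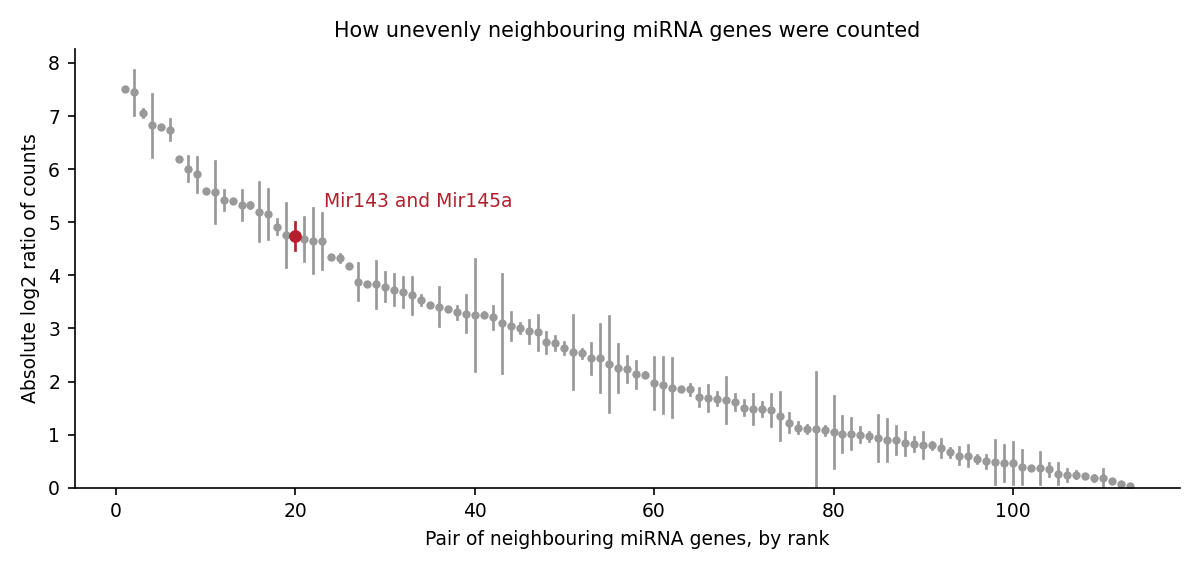
Absolute log2 ratio of counts within each of 113 pairs of neighbouring miRNA genes, ordered by the mean of both libraries (points), with lines joining the values of replicate 1 and replicate 2. Mir143 and Mir145a (red) are at rank 20, in the steep part of the curve, with a difference between animals like that of many other pairs.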

How the data were processed

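Small RNA under 30 nt from total RNA of adrenal gland was sequenced by the authors, and the deposited files hold counts of whole reads per miRNA gene for mm10 with GENCODE M21, per the file headers of each library's description. The aligner and the trimming were not given in the sources used here. The column for the gene's own strand was used. The 4 leading rows name no gene (66.2% and 69.0% of reads) and stayed out of totals. All 2202 identifiers matched GENCODE M21. Hairpins were compared over both strands, overlapping genes left out, and sequences of the members are not shown.

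CPM are counts per 1000000 counted at miRNA genes, 2 CPM in both libraries is detected, and shares have exact Clopper-Pearson intervals at 95%. With 1 group of 2 libraries, edgeR's quasi-likelihood test has no residual degrees of freedom. Libraries were instead compared by a two-sided exact binomial test across all 389 genes with a mean of at least 10 counts, using TMM sizes from edgeR 4.0.16, Benjamini-Hochberg adjustment, a threshold of 0.05 and 0.5 counts added in log2 ratios. The test was run on simulated libraries with counting error only, scaled by total counts. That run cannot check the test under TMM scaling or under variation between animals. Alternatives were DESeq2 1.42.0 size factors, total counts, other filters, denominators and pseudocounts, and edgeR's exact test. The common dispersion of that test came from the same 2 libraries taken as 1 group. A count of 0 was taken to allow 3.

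Genes named were the members, up to 4 detected genes of each list by CPM, genes within 20 kb, the 2 genes above and 2 below each member in CPM, the 3 nearest in log2 ratio, and the 3 most and least uneven pairs. Mir490, Mir145b, Mir199a-1, Mir1a-1, Mir133a-2, Mir222, Mir24-1 and Mir26a-1 were added once their values had been seen. The members and lists were chosen with earlier results of these data known. R 4.3.3, Python 3.11.15, SciPy 1.17.1 and matplotlib 3.10.9 were used.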

Additional observations from a re-analysis of the deposited data

How the results depend on the processing

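The Mir143 level moved with what it was divided by, from 31829 CPM to 37832 with unstranded totals, 25394 per 1000000 uniquely aligned reads, 10318 per 1000000 of all reads and 32214 without erythroid genes in the total. The Mir145a level moved beyond its spread only per 1000000 of all reads (389). This contrast does not show Mir145a as the steadier gene. A change of totals scales both genes alike in each library. The rating depends on each gene's SD, 77.7 CPM for Mir143 and 318 CPM for Mir145a. Leaving out 1 library gave 31774 to 31884 CPM for Mir143, 984 to 1434 CPM for Mir145a and 4.47 to 5.01 for their log2 ratio. By total counts the log2 ratio between libraries was -0.0050 for Mir143, -0.038 for Mir155 and -0.022 for Mir29c, a shift of 0.20 against TMM that all genes share. None of these genes was called on that scale, so no reversed direction was resolved. Without regard to strand the log2 ratio of Mir126a was -0.047, with an SE of 0.64 against 0.0038 on its own strand. Such a counting error means that few of its reads are in the unstranded column, so this value gives no direction. The unstranded totals over miRNA genes were 4746565 and 2860247 in replicates 1 and 2, below the strand-matched 5752428 and 3333149. With edgeR's exact test and a common dispersion the log2 ratios of 0.19 for Mir143 and -0.34 for Mir145a were no longer called, and 4 genes were called in place of 230 (16 at an unadjusted p under 0.05). The pair ranked 17 within 5 kb, 21 within 50 kb and 9 without shared runs of 18 bases or more. Adjustment of the Fisher test over all pairs was added after the data were seen and left its call in place. Of 42 alternatives for results on the members, the gene count and the pairs, 30 were rated the same. Ratios between libraries needed only the same direction and call for this, though Mir145a went to -0.54 by total counts. Levels, ratios within a library and pair ranks had to stay within their SD. Some ratings were fixed in advance. Either library alone lies within the SD of both, and the members' ratio is the same without regard to strand. Pseudocounts do not enter the binomial test. No paired analysis was possible because the series has 1 group. With 1 library per animal, differences between animals and between library preparations cannot be told apart.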
